A study of Mus musculus with 11 samples.

Results

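Neural progenitor cells (NPCs) grown in vitro from the embryonic brain were set against progenitors taken directly from the embryonic cortex. The cultures were 3 WT samples of NPCs from the lateral ventricles of E14.5 mice, maintained with B27, EGF and bFGF and profiled by bulk RNA-seq. The tissue was the dorsal telencephalon of 1 WT embryo at E14.5, profiled by droplet scRNA-seq. From its 8289 barcodes, 600 (7.24%, exact 95% binomial interval 6.69% to 7.82%) were chosen by their UMIs of marker genes as apical progenitors, and their UMIs were summed. These barcodes had at least 1000 genes, at most 10% mitochondrial UMIs and at least 5 UMIs of Sox2, Pax6, Slc1a3, Mfge8 and Sox9 together. They had at most 1 UMI of Eomes, at most 1 of Dlx1, Dlx2, Dlx5 and Dlx6os1 together, and at most 3 of Neurod2 and Neurod6 together. The labels give both groups as WT with no alleles. The conditional knockout (cKO) of Syncrip, which in this study rests on Emx1-Cre and so on dorsal progenitors, was used only as a second pair of 3 cultures and 1 tissue library. No label says whether the 3 cultures came from separate embryos, so how far their spread is technical is not known. Their counts of Y-linked genes were unlike, at 9575, 6521 and 1286, and the reason was not tested.

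Apical progenitors, or radial glia, line the ventricle of the embryonic cortex, divide there and give rise first to neurons and later to astrocytes and oligodendrocytes. Notch signaling through Hes factors keeps them undifferentiated, and a dorsal program led by Emx, Lhx2 and Neurog2 sets them apart from the ganglionic eminence below. In culture, EGF and bFGF replace the signals of the niche, and NPCs kept this way can make neurons and both kinds of macroglia.

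The platforms differed, and the dissected regions may have differed. The study's methods give the lateral ventricles as the source of the cultured NPCs, while its other passages name the neocortex or dorsal telencephalon. Culture, region and platform cannot be told apart in these data. The bulk reads cover whole transcripts, while the UMIs come from the 3′ end. A gene was therefore placed by its percentile rank (0 to 100) among the 18260 genes matched between both tables and above 0 in at least 1 WT culture. A gene was called shifted in rank when it differed by at least 25 points from the tissue in all 3 cultures, both in CPM (counts scaled to a sum of 1000000 over the compared genes) and after the counts were divided by exon length. A 4-fold call asked the same of the ratio of CPM + 1. With 1 tissue embryo no test was possible, and these calls are descriptions of size. In bulk RNA, fewer cells of a type and less RNA per cell cannot be told apart.

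The cultures held 18070819 to 22708400 counts and the summed tissue progenitors 9317484 UMIs, with a median of 14023.5 UMIs per barcode. A level from the tissue carries a 95% Poisson interval that covers counting error only. Of the genes with at least 100 CPM in the tissue, 66 of 2041 were left out for being at 0 in every WT culture, and 59 of these 66 lay at least 99% within the span of another gene. Sox2 was one of them and has no culture value here.

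Among the 600 barcodes, 42 held at least 5 UMIs of 18 endothelial, mural, meningeal and microglial markers. They gave 11.7% of the UMIs, and their median of Sox2 and Pax6 together was 0 UMIs against 10 in the other 558. The microglial markers came to 53 UMIs in all, and no barcode held 5 of them. The 3′ libraries of the WT and cKO embryos shared 22 barcode sequences. The members nearest the limit were 15 barcodes with exactly 5 UMIs of the progenitor genes, while 27 barcodes with 4 were left out.

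Gene ranks in the cultures and the tissue progenitors were alike in broad order. Over 18250 genes, with those of the cell rule left out, Spearman's rho was 0.817, 0.815 and 0.810 for the 3 cultures. Between pairs of cultures it was 0.985 to 0.987. The values with other cells of the same embryo were close to these: rho was 0.813 to 0.818 with 283 Dlx-positive progenitors, 0.808 to 0.813 with 104 intermediate progenitors and 0.817 in all 3 cultures with 3426 excitatory neurons. The order of these groups depended on the scale. Per exon length, rho was 0.792 to 0.799 with apical, 0.787 to 0.792 with Dlx-positive and 0.792 to 0.798 with intermediate progenitors, and 0.792 to 0.795 with neurons. All tissue sums share 1 library, and genes are not independent replicates. Their depth ranged from 1267016 UMIs in intermediate progenitors to 49221945 in neurons. Within the tissue, rho of apical progenitors was 0.929 with Dlx-positive progenitors, 0.943 with intermediate progenitors and 0.890 with neurons. The part of depth and platform in these values was not tested. Of the 100 highest genes by CPM, 14 were shared, and of the 500 highest, 148. Per exon length 26 and 211 were shared.

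In rank, 754 genes (4.13%) were higher in the cultures and 769 (4.21%) were higher in the tissue. By CPM alone the rank shifts numbered 1027 (5.62%) and 1104 (6.05%), and per exon length alone 1114 (6.1%) and 1221 (6.69%). By fold, 1141 genes (6.25%) were higher in the cultures and 1022 genes (5.6%) were higher in the tissue. Counts of list members below are to be read beside these shares. The median log2 ratio of all compared genes was 0.06. In the pair of cKO cultures and cKO tissue, which has 888 barcodes, 535 of the 754 and 566 of the 769 were shifted in rank in the same direction, and none of them in the opposite one.

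**Figure D1:**
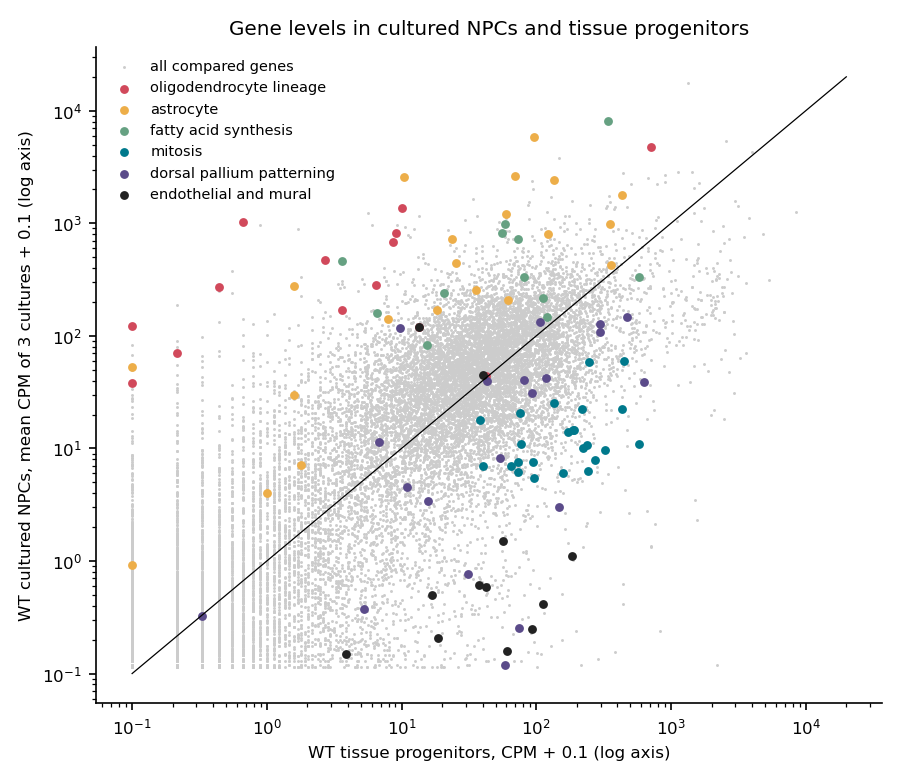
Level of each compared gene in WT tissue progenitors (x axis, CPM + 0.1) and WT cultured NPCs (y axis, mean CPM of 3 cultures + 0.1), both on log axes, with the members of 6 gene lists in color and the line of equal level. Oligodendrocyte and astrocyte genes lie mostly above the line, and mitosis, dorsal pallium and vascular genes mostly below it, apart from single members such as Wnt7b and Cspg4.

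The genes of the cell rule are given as a description, since they chose the tissue cells. Slc1a3, a glial glutamate transporter, stood at 2971, 2761 and 2666 CPM in the cultures and at 439 CPM in the tissue. Sox9 stood at 447 ± 32.4 CPM (SD, n = 3) and 339 CPM. Pax6, a dorsal progenitor factor, was lower in the cultures, at 77.1 ± 1.21 against 291 CPM, and Eomes, kept low by the rule, was at 0.275 ± 0.0944 against 10.2 CPM.

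The clearest difference lay in the oligodendrocyte lineage. Of its 16 listed genes 14 were compared, and 11 were shifted upwards in the cultures both in rank and by fold, where 4.13% of all genes were shifted so in rank. The median rank difference of the list was 53.1 points, against 0.53 for all genes. Olig1 and Olig2 are the bHLH factors that specify oligodendrocyte precursors. Olig1 was at 973, 1159 and 943 CPM in the cultures and at 0.569 CPM (0.185 to 1.33) in the tissue, where it rested on 5 UMIs. Olig2 was at 424, 541 and 449 CPM against 2.62 CPM. Sox10, the factor that drives the lineage onward, was at 98.6, 114 and 156 CPM, while the tissue progenitors held 0 UMIs of it, so that the culture mean was at least 359-fold higher, taking 3 UMIs over all 600 barcodes (0.342 CPM) as the limit that a count of 0 allows. In all 8289 barcodes of the embryo, Sox10 had 7 UMIs in 5 barcodes and Olig1 73 UMIs in 14.

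Genes of later steps stood out as well. Pdgfra, the receptor of oligodendrocyte precursors, was at 282 ± 11.8 CPM against 6.38 CPM. Without the 42 vascular and meningeal barcodes its tissue level was 0. Myrf, which turns on myelin genes, was at 166, 193 and 206 CPM against 1 UMI. Among genes of premyelinating cells and myelin, Bcas1 was at 221, 253 and 348 CPM against 3 UMIs. Mbp spread widely, with 595, 768 and 1104 CPM against 8.99 CPM, and even its lowest culture was far above the tissue. Cspg4 and Ptprz1 were among the 3 members that were not called. Cspg4 was at 120 ± 18.5 against 13.4 CPM and was called once the vascular barcodes were left out.

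Astrocyte genes were higher too. Of 21 compared members 9 were shifted upwards in rank, where 4.13% of all genes were, and 14 were past 4-fold, where 6.25% were. The median rank difference was 19.3 points, and no member was called lower. Slc1a2, the main glutamate transporter of mature astrocytes, was at 2682, 2487 and 2613 CPM in the cultures and at 10.4 CPM in the tissue, a 250-fold difference. Aqp4, the water channel of astrocyte endfeet, was at 285, 231 and 314 CPM against 1.48 CPM. Apoe, a lipid carrier, spread widely, at 4173, 7586 and 5720 CPM against 96.2 CPM, and Glul, the glutamine synthetase, was at 2626 ± 245 against 69.8 CPM. Both ranked too high in the tissue to be 25 points higher in the cultures, and passed by fold and not by rank. Without the vascular barcodes Clu lost its rank call, and Sparcl1 and Gja1 gained one.

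**Figure D2:**
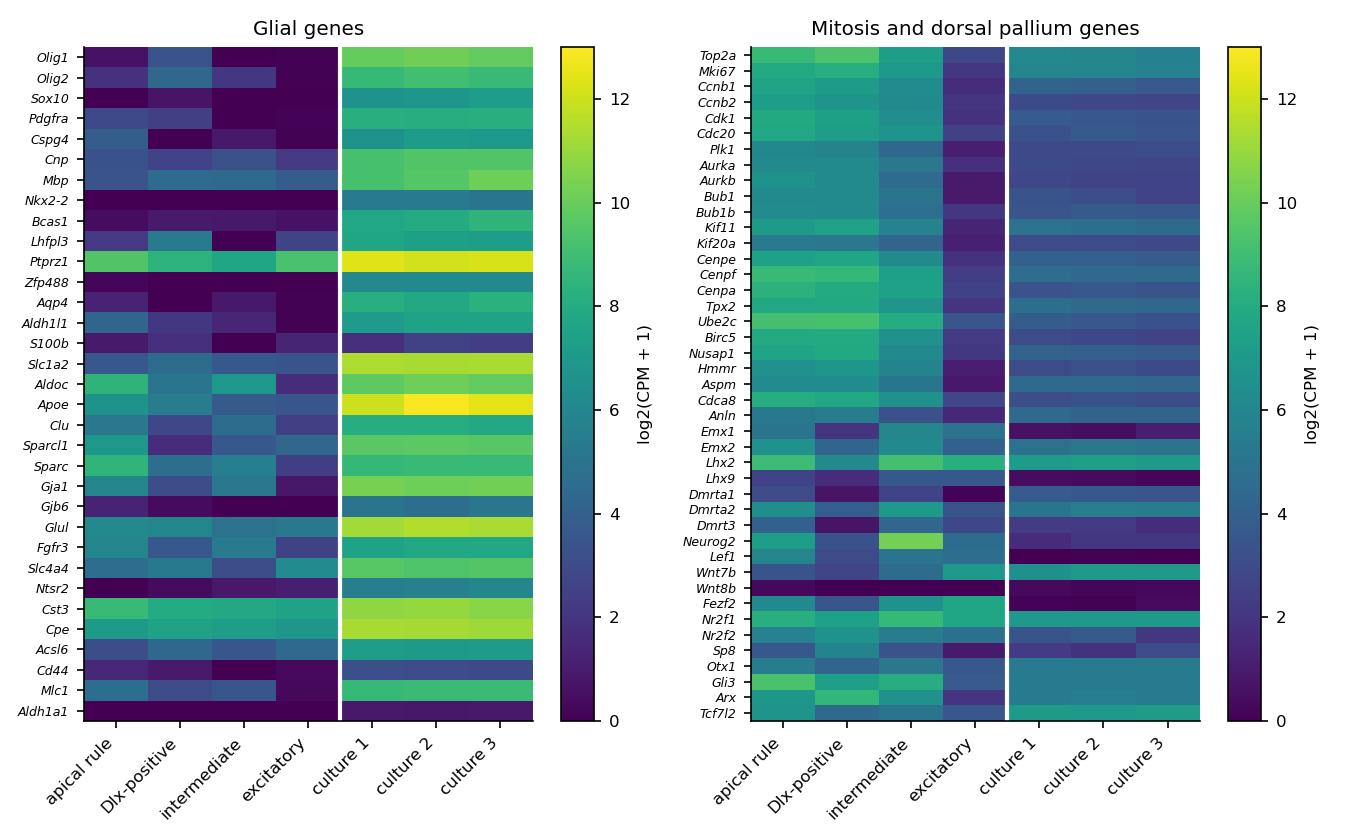
Levels as log2(CPM + 1), by color, of oligodendrocyte and astrocyte genes (left) and mitosis and dorsal pallium genes (right) in 4 groups of WT tissue barcodes and in the 3 WT cultures, parted by a white line. Most glial genes are brighter in every culture than in any tissue group, and mitosis genes are darker in the cultures than in the 3 progenitor groups.

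By the rule of largest fold, the 15 leading protein-coding genes higher in the cultures held 5 members of the oligodendrocyte list (Olig1, Olig2, Sox10 and Bcas1 among them) and Myrf and Enpp6, known from the same lineage. The others included Tnr, Pla2g7, Kcna2, Slc1a2, Plxnb3, Slc6a11 and Cntn1. Tnr, an extracellular matrix protein of perineuronal nets and glia, was at 903, 910 and 1080 CPM against 0.797 CPM. Slc6a11, a transporter that clears GABA, was at 1222 ± 96.8 against 5.58 CPM. These 15 were chosen for being higher in every culture, so that their lowest culture lay above the interval of the tissue follows from the choice. All 15 were called in the cKO pair as well, which has the same difference of platform.

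**Figure D3:**
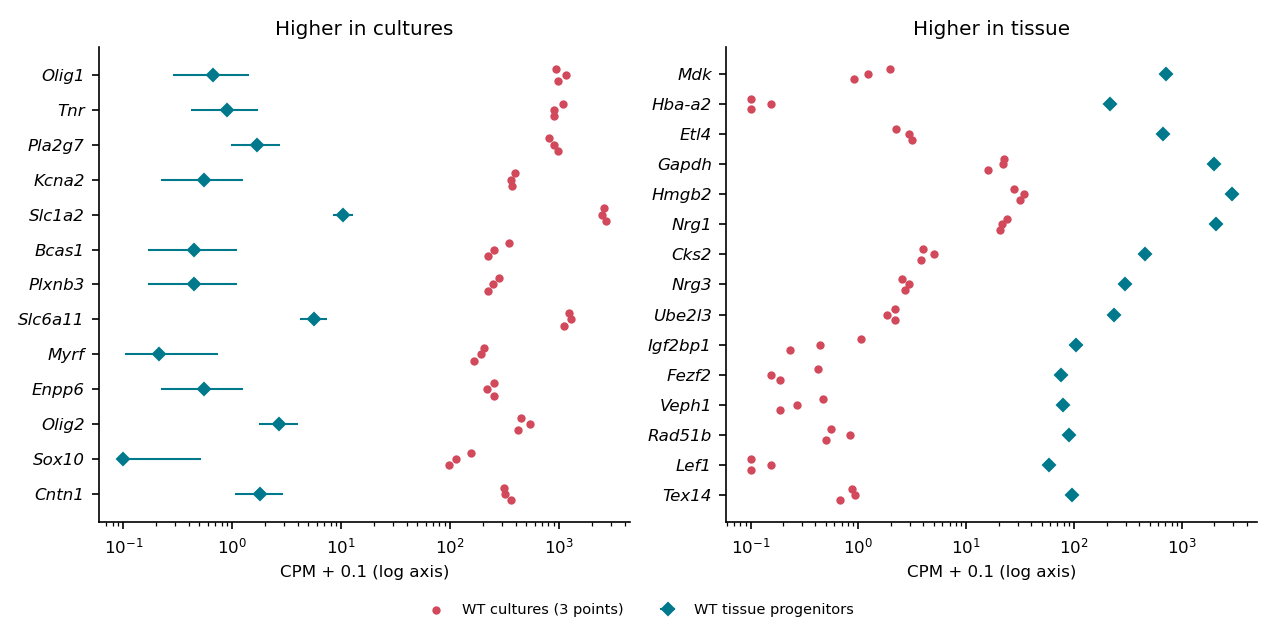
CPM + 0.1 on a log axis of 13 of the 15 genes higher in the cultures and all 15 higher in the tissue with the largest ratio, among genes that share under 50% of their span and whose calls hold without the vascular barcodes. Circles are the 3 WT cultures, and diamonds the WT tissue progenitors with their 95% Poisson interval. The cultures and the tissue do not overlap for any gene drawn, which follows from the rule that chose these genes.

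Growth factor genes varied by member. Of 27 genes of EGF and FGF signaling, 4 were higher in the cultures in rank, where 4.13% of all genes were, and none was lower. Egfr, the receptor of the EGF in the medium, was at 313, 271 and 340 CPM against 7.63 CPM, and its ligand Tgfa at 69.8 ± 2.6 against 2.05 CPM. The feedback inhibitors Spry2 and Lrig1 were at 115 ± 7.17 and 347 ± 7.94 CPM against 16.5 and 34.3 CPM. Fgfr1, a receptor for the bFGF in the medium, was not called, at 254 ± 17.9 against 129 CPM.

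Lipid synthesis was split by pathway. Of 12 fatty acid genes 3 were higher in rank and 7 by fold, where 4.13% and 6.25% of all genes were. Scd1 and Scd2, which desaturate fatty acids, were at 466 ± 26.4 and 8081 ± 183 CPM against 3.53 and 342 CPM, and the synthase Fasn at 825 ± 96.3 against 55.4 CPM. Of 24 cholesterol genes none was higher in rank and 1 by fold (Tm7sf2). Fdps was the only one called lower, and it overlaps other genes over 89.7% of its span.

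Among 16 regulators of G1, 3 were higher in the cultures in rank, where 4.13% of all genes were. Ccng1, a cyclin, was at 429, 349 and 346 CPM against 8.65 CPM, Trp53inp1 at 237 ± 34 against 10.2 CPM, and Cdkn1a, the inhibitor p21, at 100 ± 20.2 against 12.4 CPM. Cdk6, a kinase that drives G1, was lower, at 11.4 ± 0.781 against 206 CPM.

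Mitosis genes were lower in the cultures. Of 24 compared members 21 were shifted downwards in rank, where 4.21% of all genes were, and none was shifted upwards. The list summed to 416, 387 and 341 CPM in the cultures and to 4700 CPM in the tissue. It summed to 4678 CPM in the Dlx-positive progenitors and to 75.1 CPM in the excitatory neurons, and the cultures lay between them. Ube2c, which helps the anaphase-promoting complex to degrade cyclins, was at 13.4, 10.6 and 8.53 CPM against 583 CPM. Birc5 of the chromosomal passenger complex was at 6.14 ± 0.855 against 242 CPM, and the mitotic kinase Cdk1 at 10.7 ± 1.34 against 238 CPM. Mki67, which marks cycling cells, differed less, at 58.9 ± 5.6 against 247 CPM, and was not called. In the cKO pair 8 members were called lower. The difference between the pairs was not tested.

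The promoters of these genes are shown because the members move together, and the motif was chosen with that result known. In RefSeq promoters of GRCm38.p6, from 250 bases before to 50 after the gene start, the letters TTTGAA of the cell cycle homology region were searched on both strands. They occurred in 17 of 22 mitosis promoters (77.3%) and in 12.9% of 13175 promoters of compared genes. They occurred in 3 of 21 promoters of DNA replication genes (14.3%). CCAAT, also on both strands, occurred in 19 of 22 mitosis promoters (86.4%), in 13 of 21 of DNA replication genes (61.9%) and in 38% of the compared genes. Below are 30 bases, 5′ to 3′ on the strand of the gene, from 5 of the 6 called members with the largest rank difference among those with the motif, which is in capitals:
Ccnb2 (chr9:70421533-70421562, minus strand): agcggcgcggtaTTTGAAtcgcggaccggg
Cenpa (chr5:30666890-30666919, plus strand): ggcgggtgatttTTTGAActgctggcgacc
Ube2c (chr2:164769888-164769917, plus strand): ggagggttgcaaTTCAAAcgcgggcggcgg
Cdc20 (chr4:118437344-118437373, minus strand): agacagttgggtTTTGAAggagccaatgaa
Cdk1 (chr10:69352910-69352939, minus strand): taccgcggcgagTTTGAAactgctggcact
In Ube2c the letters stand on the opposite strand. A match is a description of these letters and not evidence of binding.

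DNA replication genes followed the same direction with smaller differences. Of 23 members 12 were lower in rank, where 4.21% of all genes were, and none was higher, with a median of -30.4 points. Tyms, which makes thymidylate, was at 5.43 ± 0.19 against 143 CPM. Pcna, the sliding clamp, was at 66.4 ± 5.65 against 260 CPM and was not called.

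Dorsal pallium genes were lower in part. Of 20 compared members 6 were lower in rank, 5 of them (all but Nr2f2) also without the vascular barcodes, and 1, Wnt7b, was higher. Over all genes 4.21% were lower and 4.13% were higher. Fezf2, a factor of dorsal progenitors and deep-layer neurons, was at 0.0891, 0.056 and 0.321 CPM in the cultures and at 74.8 CPM in the tissue. Neurog2, the dorsal proneural factor, was at 2.18, 3.25 and 3.35 CPM against 148 CPM, and Emx1 at 0.661 ± 0.384 against 30.9 CPM. Gli3, a dorsal repressor of Hedgehog signaling, was at 38.8 ± 0.411 against 625 CPM. Lhx2, which sets cortical identity, was not called, at 146 ± 15.4 against 475 CPM. Lef1, a Wnt effector, had counts in 1 culture only, and its tissue level was 58.8 CPM with all barcodes and 41.6 CPM without the vascular ones. Ventral genes did not move as a group: of 16 members 3 were higher (Olig1, Olig2 and Gsx1) and Ebf1 was lower. The call of Ebf1 was lost without the vascular barcodes. The cell rule keeps barcodes rich in Dlx genes out of the tissue sum. The ventral list summed to 232 CPM in that sum and to 2069 CPM in the Dlx-positive progenitors. The part of the rule in these values was not tested.

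**Figure D4:**
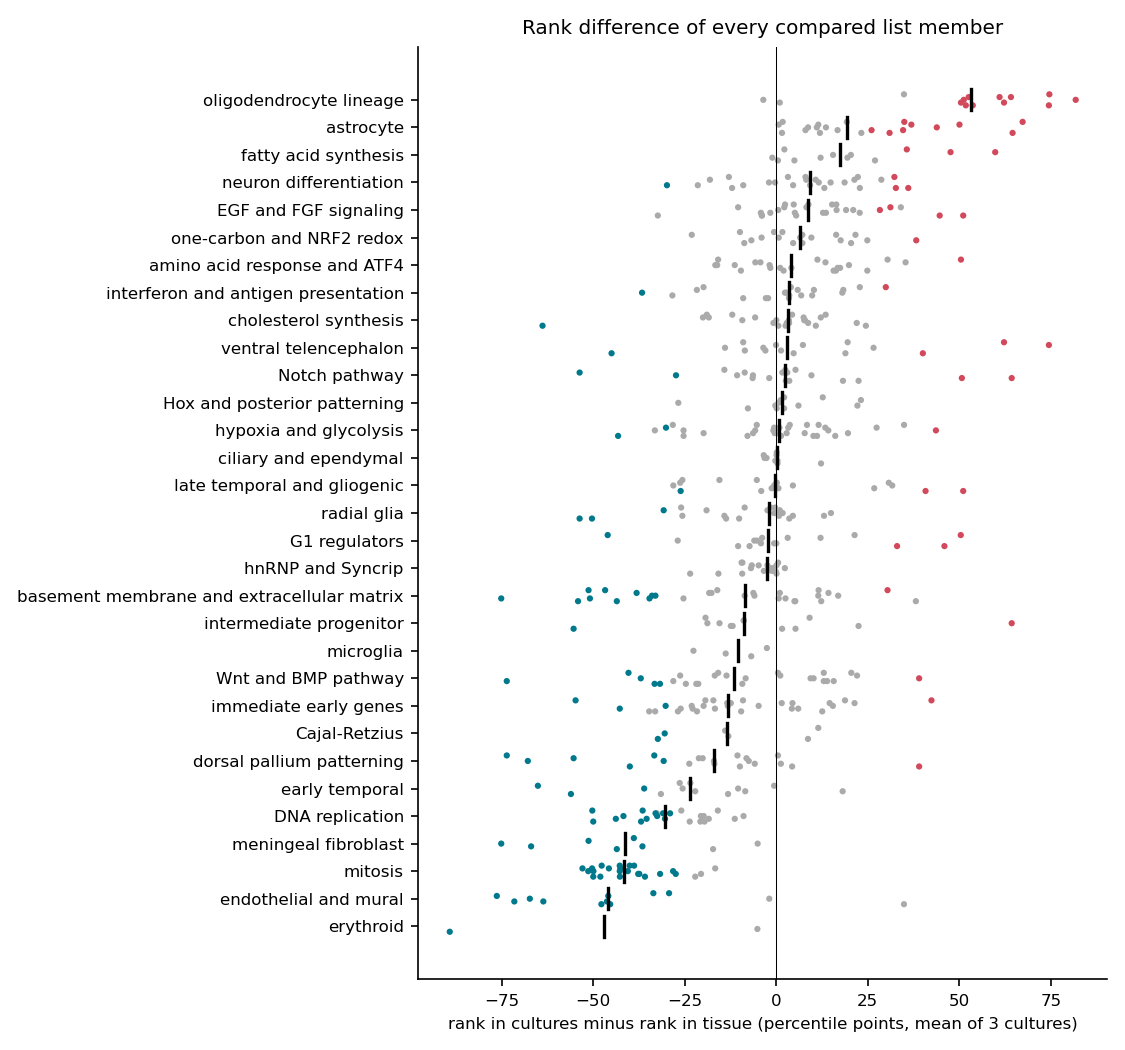
Rank in cultures minus rank in tissue, in percentile points as the mean of 3 WT cultures, for every compared member of 31 gene lists; points in red are shifted upwards in the cultures, points in teal downwards and points in grey not called, and black bars are list medians. The oligodendrocyte list has the highest median, 53.1 points, and mitosis and the vascular and erythroid lists the lowest.

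Notch genes were divided. Hes1, a main Notch effector of radial glia, was at 4.36, 5.26 and 5.23 CPM in the cultures and at 201 CPM in the tissue, a 40.5-fold difference. Hes5, the other main effector, was at 77.5 ± 15 against 192 CPM and was not called, and other genes overlap 52.2% of its span. Its rank difference was -14.2 points by CPM and 1.63 points per exon length. The ligand Dll3 and the regulator Dtx1 were higher in the cultures, at 264 ± 32.6 and 144 ± 21.2 CPM against 1.48 and 3.99 CPM. The receptor Notch1 was at 393 ± 43.6 against 183 CPM and was not called. In the cKO cultures Hes1 was at 35.6 CPM against 245 CPM in the cKO tissue and was not called.

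Of 13 genes that mark early progenitors 3 were lower in rank in the cultures, where 4.21% of all genes were, and none was higher. Igf2bp1, an RNA-binding protein of young progenitors, was at 0.134, 0.336 and 0.963 CPM against 104 CPM, and the chromatin protein Hmga2 at 0.948 ± 0.178 against 87.1 CPM. Of 19 late genes 2 were higher in rank (Sox8 and Egfr) and 1 was lower (Unc5d), with a median of -0.22 points. Nfix was at 506 ± 89.7 against 597 CPM, Nfib at 402 ± 31 against 1818 CPM and Zbtb20 at 197 ± 42.6 against 1011 CPM. Nfib and Zbtb20 were past 4-fold and not shifted in rank. Both are long genes, with spans of 415578 and 766722 bases, and the part of gene span in their values was not tested. Nedd4, a ubiquitin ligase, was at 1065 ± 59.8 against 771 CPM, and Syncrip at 79.8 ± 2.52 against 316 CPM, and neither was called.

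Of 22 radial glia genes none was higher in rank and 3 were lower in rank (Hes1, Gli3 and Zfp36l1, of which the last overlaps other genes over 94.5% of its span). Fabp7, a fatty acid binding protein, was at 1117 ± 239 against 3762 CPM and Vim, an intermediate filament, at 854 ± 99.6 against 2055 CPM, and neither was called. Ednrb, an endothelin receptor, was past 4-fold higher, at 1538 ± 107 against 87.7 CPM. Of 25 genes of neuron differentiation 3 were higher in rank (Dcx, Mapt and Syn1) and 1 was lower (Stmn2, at 15.2 ± 1.82 against 68.3 CPM). Over all genes 4.13% were higher and 4.21% were lower. Dcx and Mapt, which bind microtubules, were at 564 ± 51 and 566 ± 72.8 CPM against 29 and 24.4 CPM. In the cKO pair none of the list was shifted upwards in rank, and its median was -2.96 points against 9.25 in the WT pair. The cell rule keeps barcodes rich in Neurod2 and Neurod6 out of the tissue sum, and its part in these differences was not tested.

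The calls of vascular and meningeal genes rested on the 42 barcodes, which were picked by such genes, so that their loss without these barcodes is fixed by the choice. With all 600 barcodes, 10 of 12 endothelial and mural genes and 6 of 8 meningeal genes were lower in rank, where 4.21% of all genes were. Without the 42, none of either list was. Collagen and laminin genes were touched as well: 10 of 29 matrix genes were lower with all barcodes and 2 without. The mitosis list had 21 calls with and without them, and the oligodendrocyte list 11 and 12.

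Many of the largest differences towards the tissue were in genes that overlap others in the genome. Of the 15 leading genes by fold, 10 share at least 50% of their span with another gene, among them Cmss1 and Nme1. Genes with over 90% of their span shared had a median rank difference of -24.3 points and 35.5% of them were called lower, against 1.23 points and 2.78% for genes with no overlap. Among genes below 50%, whose calls also held without the 42 barcodes, the leading ones included Mdk, Etl4, Hmgb2, Nrg1 and Nrg3. Mdk, a secreted heparin-binding growth factor, was at 0.802, 1.12 and 1.88 CPM against 710 CPM. Nrg1, a ligand of ErbB receptors, was at 21.8 ± 1.72 against 2082 CPM. Etl4, Nrg1 and Nrg3 are very long genes, with spans of 900934, 1069479 and 1104137 bases. When genes were grouped by span, 5.89% of the 4565 longest were called lower, against 3.48% to 3.83% in the shorter groups. The part of gene span in these differences was not tested. Gapdh, Hmgb2, Cks2 and Hba-a2 have close copies elsewhere in the genome, between which reads may be split, and their values are uncertain. Hba-a2, an adult hemoglobin chain of red cells, was at 215 CPM in the tissue and at 15.5 CPM without the 42 barcodes. Gapdh stood at 19.8 ± 3.59 CPM in the cultures against 1984 CPM.

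**Figure D5:**
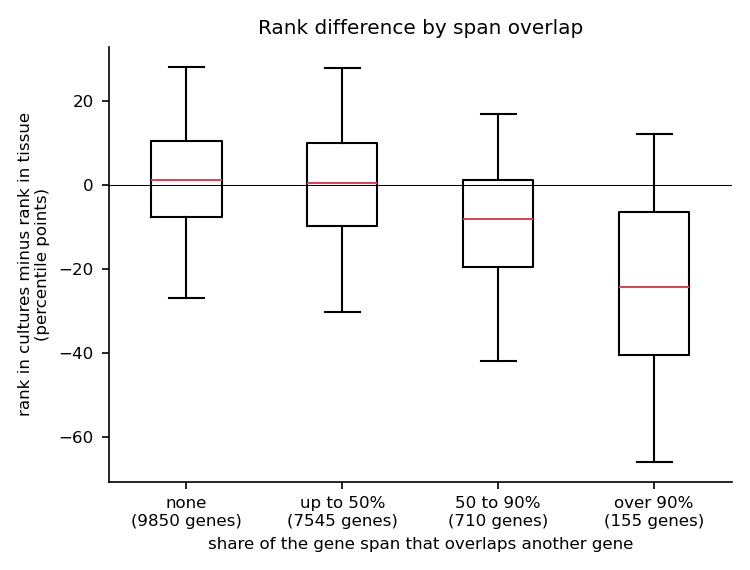
Rank in cultures minus rank in tissue, in percentile points, by the share of a gene's span that overlaps another gene (boxes are quartiles with the median in red, whiskers the 5th and 95th percentiles, no outliers drawn). The median falls from 1.23 points with no overlap to -24.3 points above 90%.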

How the data were processed

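The authors deposited raw counts per gene for the bulk RNA-seq, from paired reads aligned to mm10 with HISAT2. The sources used here do not name the counting program, annotation or strand setting. For scRNA-seq they deposited raw UMI counts of filtered barcodes from Cell Ranger 7.0.0. Genes were matched by symbol (27834) or position (1178), and 18260 were compared. UMIs were summed over the tissue barcodes, and counts were scaled to CPM of the compared genes, also after division by GENCODE M21 exon length. No test was made. The calls were tested on counts simulated from the culture profile, with 200 of the more abundant genes changed. At 8-fold, rank calls returned 65 and fold calls 145 of them, and at 32-fold 106 and 196. Apart from exon length no platform difference was simulated, so the real calls that rest on the platform cannot be counted from it. Genes were named by a rule (the 15 largest ratios per direction with both calls and at least 50 CPM on 1 side, called list members and the 3 highest not called, genes of the cell rule, and genes the study names). The first part left out genes of the cell rule, mitochondrial, Y-linked, histone, ribosomal and predicted genes, Xist, and genes not protein-coding. Repeating it among genes that share under 50% of their span, and singling out Gapdh, Apoe, Mdk, Nrg1, Igf2bp1 and Vim, followed after their values were seen. The members and lists were chosen with earlier results of these data known. Scrublet called 252 of 7554 WT barcodes doublets, none of them among the 600. Analyses used Python 3.11.15, scipy 1.17.1, scanpy 1.11.5 and edgeR 4.0.16 (TMM). The LACE-seq samples were not analysed here. Some genes and a sequence are not reported here.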

Additional observations from a re-analysis of the deposited data

Results flagged for a closer look

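Fosb, a subunit of the AP-1 factor that is induced within minutes of a stimulus, was past 4-fold in opposite directions in the WT and cKO pairs, though it was not called in rank in the WT pair. There its rank difference was -26.1 points, with 5.42 ± 0.897 CPM in the cultures and 32.3 CPM in the tissue. In the cKO pair it was at 124 CPM in the cultures and 15.1 CPM in the tissue and was higher both by fold and in rank. The difference was not tested. The WT tissue value comes from all 600 barcodes. Of 30 immediate early genes 4 were past 4-fold lower in the WT cultures with all barcodes and 1 without the vascular ones. Over all 18260 compared genes, 1022 (5.6%) were so with all barcodes and 874 without the vascular ones.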

How the results depend on the processing

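No paired analysis was possible because the WT tissue is 1 library, so the groups share fewer than 2 replicate numbers. The rank correlation of culture and tissue (mean rho) was 0.8145, and 0.8096 with no Eomes, Dlx or Neurod UMI allowed, 0.6584 among genes with at least 1 CPM, 0.777 for protein-coding genes, 0.8221 in the cKO pair, 0.7949 per exon length and 0.8212 without genes sharing 50% of their span. In counts of genes shifted in rank, higher in cultures and genes shifted in rank, higher in tissue, genes with at least 1 CPM gave 1139 of the first and counts per exon length alone 1221 of the second. A limit of 15 points gave 1975 and 1734, 35 points 287 and 355, and a pseudocount of 5 CPM 648 and 636 genes past 4-fold. Without 1 culture, rho was 0.8130 to 0.8165, rank shifts were 772 to 842 and 839 to 862, and 4-fold calls 1159 to 1294 and 1068 to 1093. Leaving out the vascular barcodes or genes with shared span, and CPM alone, were chosen after seeing the data. Over these alternatives, named genes kept their direction in 908 of 913 values and list medians in 480 of 496. The 5 named values that changed sign were of Nfix, Nedd4 and Hes5, which were not called. The cKO pair was repeated with the genes above 0 in its own cultures. There the medians of immediate early genes (-13.3 to 10.15 points), neuron differentiation (9.25 to -2.96) and ventral genes (3.03 to -2.36) changed sign. Over the members compared in the WT pair, the ventral median in the cKO pair was 2.07 points and kept its sign. By that set the median of ciliary genes changed from 0.08 to -1.86. Without the vascular barcodes the median of matrix genes (-8.62 to 5.49) changed sign. Depth limits the low tissue genes: 3 UMIs equal 0.342 CPM.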

Other observations

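For the groups below, 4.13% of all genes were higher and 4.21% lower in rank. Of 52 replication-dependent histone genes, whose transcripts carry no poly(A) tail, 29 were lower in the cultures in rank and none was higher. Of 91 ribosomal protein genes, 34 were past 4-fold lower, where 5.6% of all genes were, and 3 were lower in rank. They summed to 16686 CPM in the cultures and to 139975 CPM in the tissue. Their median log2 ratio of cultures to tissue was -3.11 by CPM and -1.81 per exon length. Among immediate early genes, 3 of 30 were lower in rank in the WT cultures (Ier2, Nr4a2 and Klf2, of which only Nr4a2 was called without the vascular barcodes) and Myc was higher, at 77.4 CPM against 3.42 CPM, while in the cKO pair 9 were higher; the difference was not tested. Of 26 Wnt and BMP genes, 5 were lower (Lef1, Tcf7, Sfrp1, Smad6 and Bambi, with Tcf7 and Bambi not called without the vascular barcodes) and Wnt7b was higher. Of 19 hnRNP genes, the family of Syncrip, and 9 ciliary genes none was shifted in rank. By fold, 2 of the 19 hnRNP genes were lower in the cultures, where 5.6% of all genes were. The hnRNP list summed to 5172 CPM in the cultures and to 9838 CPM in the tissue. Among 23 amino acid response genes Sesn2, a stress-induced inhibitor of mTORC1, was the only one shifted, at 117 CPM against 2.96 CPM. Of 33 hypoxia and glycolysis genes 1 was higher (Hk1) and 2 were lower (Gapdh and Hk2). Y-linked genes had 9575, 6521 and 1286 counts in the 3 WT cultures and 2472 UMIs in the WT tissue progenitors.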
